A study of Mus musculus with 9 samples.

Results

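Gluconeogenesis, the making of glucose from lactate, amino acids and glycerol, was followed in mouse liver through 9 genes: the enzymes Pcx, Pck1, Fbp1 and G6pc, the glucose 6-phosphate transporter Slc37a4, the cytosolic shuttle enzymes Got1 and Mdh1, and the regulators Ppargc1a and Foxo1. The genes were taken by name, as the rows whose Ensembl identifier carries one of these symbols (G6pc is called G6pc1 in newer annotation). All 9 were found among the 54007 rows of the deposited table, and all 9 reached 1 FPKM (fragments per kilobase of transcript, scaled to the depth of the library) in all 9 libraries. They were therefore all among the 10988 genes that were tested.

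The RNA-seq libraries came from whole liver of C57BL/6 mice at postnatal day 98. They had been split at the age of 6 weeks into 3 groups of 15, and 3 liver libraries per group were analysed. Control mice are replicates 1, 2 and 4, mice on a high-fat diet (HFD) are replicates 1, 2 and 3, and mice on the high-fat diet that also received the gut bacterium Papillibacter cinnamivorans by gavage (HFD+Pc) are replicates 1, 3 and 4. The diets' composition and length, the sex of the mice, a gavage of vehicle, the hours of fasting and the time of day at collection are not given in the sources used here, and nor is the number of animals behind each library. P-values therefore measure the spread between these libraries, which may be partly technical.

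Pyruvate carboxylase turns pyruvate into oxaloacetate inside mitochondria, and the malate and aspartate made from it carry its carbon to the cytosol, where MDH1 and GOT1 return it to oxaloacetate. PEPCK, fructose 1,6-bisphosphatase and glucose 6-phosphatase then carry out the steps that bypass the irreversible reactions of glycolysis. Fasting hormones raise transcription of the pathway through cAMP, CREB, the glucocorticoid receptor, PGC-1α and FOXO1, and insulin lowers it, largely by keeping FOXO1 out of the nucleus.

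Depth was similar among the libraries. Reads recovered from the FPKM numbered 16558161 to 18925671 per library, and 10323 to 10587 genes reached 1 FPKM. Counted reads ranged from 151 to 315 for Ppargc1a, the most shallowly read of the 9 genes, and from 15080 to 71101 for Pck1. A sequence search found no near-identical copy (at least 90% identity over at least 100 bases) for 8 of the 9 genes. Foxo1 shared such stretches with other genes, up to 174 bases in length apart from the overlapping antisense gene Gm20402, which was listed at 0. Mdh1 shares 52 exon bases with Wdpcp on the opposite strand, whose mean was 0.326 FPKM.

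The high-fat diet livers held less transcript of 5 of the 9 genes than control livers, namely Pck1, G6pc, Got1, Slc37a4 and Fbp1, and more of none. Pck1 and G6pc stood at about 30.0% and 32.1% of the control mean. Among all 10988 tested genes, 5.35% were lower and 4.61% higher in that comparison by the same test (limma on log2(FPKM + 1), Benjamini-Hochberg adjusted p under 0.05). The HFD and control libraries did not overlap for 6 of the 9 genes, against 32.9% of all tested genes. Across the 9 genes the median difference was -0.53 on the log2(FPKM + 1) scale, beside -0.001 over all tested genes. The 9 genes were chosen with earlier results of these data known, so these counts beside all tested genes are a description only. In bulk RNA, fewer cells expressing a gene and less RNA per cell cannot be told apart.

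Between mice gavaged with P. cinnamivorans on the diet and mice on the diet alone, none of the 9 genes passed that test. At an adjusted p under 0.05 in limma the count was 0 of 9, beside 0.446% lower and 0.182% higher among all tested genes. At an unadjusted p under 0.05 it was also 0, beside 15.6% of all tested genes, and by limma-voom on the recovered reads 0, beside 1.68%. The groups did not overlap for 1 of the 9 genes, Mdh1, against 19.8% of all tested genes. The median over the 9 genes was 0.05, and over all tested genes 0.009.

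Against control, 6 of the 9 genes were lower in HFD+Pc (the 5 above and Pcx) and 1, Mdh1, was higher, where 11.9% and 11.1% of all tested genes were lower and higher. The groups did not overlap for 7 of the 9, against 42.8% of all tested genes. The median over the 9 genes was -0.47, and over all tested genes 0.008. This comparison and that of HFD with control share the same 3 control libraries, so their values are given side by side and are not independent of each other.

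**Figure D1:**
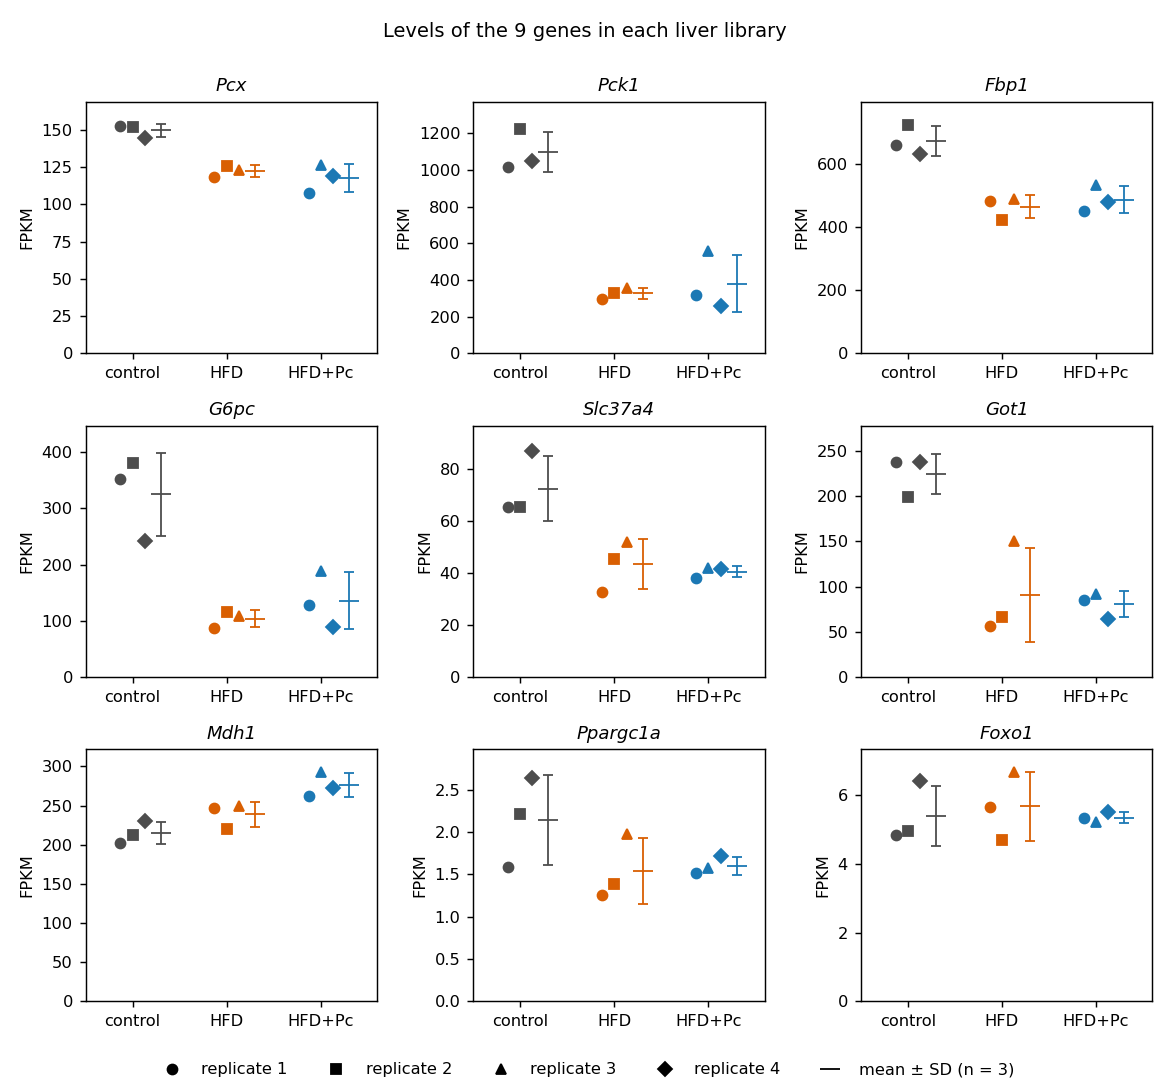
FPKM of the 9 genes in each library, with 1 panel per gene and an axis from 0; points are libraries, with the shape giving the replicate number, and the bar beside each group is the mean ± SD of 3 libraries. For Pck1, G6pc, Fbp1, Slc37a4 and Got1 every control library lies above all 6 libraries of the high-fat diet groups, whereas Ppargc1a and Foxo1 overlap between groups.

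Pcx encodes pyruvate carboxylase, which starts the pathway. It read 152.4, 152.0 and 144.6 FPKM in the control libraries, 118.0, 125.5 and 123.2 in HFD, and 107.4, 126.5 and 119.2 in HFD+Pc. Every control library was above every other library, while the high-fat diet groups overlapped. The difference of HFD from control was -0.29 ± 0.09 (SE) on the log2(FPKM + 1) scale and missed the threshold (limma adjusted p = 0.0651). In HFD+Pc, Pcx fell by 0.35 ± 0.09 relative to control (limma adjusted p = 0.0208), to 78.6% of the control mean. That call was lost without control replicate 1, control replicate 2 or HFD+Pc replicate 1, with limma adjusted p up to 0.067.

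Pck1 encodes cytosolic PEPCK, which makes phosphoenolpyruvate from oxaloacetate and whose amount is set mainly by transcription. The control libraries held 1016.5, 1220.3 and 1049.1 FPKM, the HFD libraries 297.7, 329.3 and 357.8, and the HFD+Pc libraries 319.9, 555.3 and 260.4. All 6 libraries from the high-fat diet groups lay below the lowest control library, and HFD+Pc replicate 3 was the highest of these 6. The means were 1095.3 ± 109.5, 328.2 ± 30.1 and 378.5 ± 155.9 FPKM (SD, n = 3 each). Relative to control, Pck1 fell by 1.73 ± 0.24 in HFD (limma adjusted p = 0.0067) and by 1.60 ± 0.24 in HFD+Pc (limma adjusted p = 0.00356), and both calls held when any 1 of the 9 libraries was left out. Between the high-fat diet groups the difference was 0.13, with a 95% interval of -0.41 to 0.67 (limma adjusted p = 0.832). It was -0.18 without HFD+Pc replicate 3.

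Because Pck1 and G6pc had the largest estimated differences between HFD and control among the 9 genes, the 250 bases before their annotated starts are shown, from RefSeq's GRCm38.p6 (the deposited values rest on GRCm39, and no coordinate of that build is used). Capitals mark matches to the motifs searched, each read on both strands.
Pck1, chr2:173152823-173153072, plus strand: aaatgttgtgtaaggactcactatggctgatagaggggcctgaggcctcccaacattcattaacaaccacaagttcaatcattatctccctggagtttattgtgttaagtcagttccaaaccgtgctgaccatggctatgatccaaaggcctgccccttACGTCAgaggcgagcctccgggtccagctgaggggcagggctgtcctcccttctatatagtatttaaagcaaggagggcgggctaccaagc
G6pc, chr11:101367466-101367715, plus strand: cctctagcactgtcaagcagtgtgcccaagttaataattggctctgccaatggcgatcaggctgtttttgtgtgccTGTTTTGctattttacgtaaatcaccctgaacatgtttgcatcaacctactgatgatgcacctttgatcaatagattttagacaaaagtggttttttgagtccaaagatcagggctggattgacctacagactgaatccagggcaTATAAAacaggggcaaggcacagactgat
The Pck1 capitals are the CREB core site ACGTCA, whose first base is at position -91 from the start. In G6pc they are a core of the insulin response element on the opposite strand (CAAAACA, from position -174) and a TATA box (TATAAA, from position -29).

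The CREB core site also stood near a start of 2 other genes of the 9, and these 40-base windows are shown to set its neighbourhood beside that in Pck1.
Ppargc1a, chr5:51567753-51567792, minus strand: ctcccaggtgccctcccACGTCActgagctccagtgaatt
Slc37a4, chr9:44396868-44396907, plus strand: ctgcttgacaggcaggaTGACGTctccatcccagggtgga
In Slc37a4 the match is on the opposite strand and falls before 2 of its 3 listed starts, at positions -61 and -214. All 9 genes had an entry, with 12 starts between them, and windows ran from 250 bases before to 50 bases after each start. ACGTCA was found in 4 of the 12 windows, from 3 of the 9 genes, and in 7.51% of all 32851 promoters of the same length. Of these 4 windows, 2 overlap and hold the same Slc37a4 site. CAAAACA was found in 1 of the 12 windows (6.28% of all promoters) and TATAAA in 2, of G6pc and Slc37a4 (13.6%). The FOXO motif GTAAACA (3.65%), the palindromic glucocorticoid receptor element (0.00913%) and the direct repeat that HNF4A binds (0.0396%) matched in none of the 12 windows. A match of letters is a description of these windows only, and genes with and without a match were among those that differed: Pck1 and Slc37a4 fell and hold ACGTCA, Ppargc1a holds it and did not pass the test, and Got1 and Fbp1 fell and hold none of the motifs.

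Fbp1 encodes fructose 1,6-bisphosphatase, which removes a phosphate from fructose 1,6-bisphosphate. It read 660.6, 723.6 and 633.2 FPKM in control, 482.7, 421.7 and 490.3 in HFD, and 449.7, 533.0 and 479.0 in HFD+Pc. No high-fat diet library reached the lowest control library, and the HFD and HFD+Pc libraries overlapped. Fbp1 fell by 0.53 ± 0.11 in HFD (limma adjusted p = 0.0215) and by 0.47 ± 0.11 in HFD+Pc (limma adjusted p = 0.0164), to 69.1% and 72.5% of the control mean. In HFD the call was lost without control replicate 1, control replicate 2 or HFD replicate 2, with limma adjusted p up to 0.0747, or with no filter on low values (0.0629), and in HFD+Pc without control replicate 2 (0.0616).

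G6pc encodes the catalytic subunit of glucose 6-phosphatase, the last step, which frees glucose in the endoplasmic reticulum. Control libraries read 351.8, 380.9 and 241.4 FPKM, HFD libraries 88.3, 116.5 and 108.3, and HFD+Pc libraries 129.2, 189.4 and 88.4. Control replicate 4 was the lowest of its group and still above HFD+Pc replicate 3, the highest of the 6 high-fat diet libraries. The means were 324.7 ± 73.6, 104.4 ± 14.5 and 135.7 ± 50.8 FPKM (SD, n = 3 each). G6pc fell by 1.61 ± 0.27 in HFD (limma adjusted p = 0.0127) and by 1.29 ± 0.27 in HFD+Pc (limma adjusted p = 0.0112), and both calls held in all 9 fits that left out a library. With no filter on low values the HFD call was just missed (limma adjusted p = 0.0503). HFD+Pc differed from HFD by 0.32, with a 95% interval of -0.29 to 0.93 (limma adjusted p = 0.623).

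Slc37a4 encodes the transporter that brings glucose 6-phosphate to the phosphatase. Its values were 65.2, 65.2 and 86.8 FPKM in control, 32.9, 45.3 and 51.8 in HFD, and 38.0, 41.8 and 41.5 in HFD+Pc. All high-fat diet libraries were below all control libraries. Slc37a4 fell by 0.74 ± 0.17 in HFD (limma adjusted p = 0.0279) and by 0.81 ± 0.17 in HFD+Pc (limma adjusted p = 0.01), to 59.9% and 55.9% of the control mean. The HFD+Pc call held in all 9 fits that left out a library. The HFD call was lost without control replicate 1, 2 or 4 or HFD replicate 1 or 2 (limma adjusted p up to 0.0733) and when only these 2 groups were fitted (0.0616) or no filter was set on low values (0.0976).

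Of the 2 shuttle enzymes of the cytosol, Got1 fell in both high-fat diet groups against control, and Mdh1 rose in HFD+Pc against control. Got1 encodes aspartate aminotransferase, which returns oxaloacetate from aspartate. It read 237.3, 199.0 and 237.3 FPKM in control, 56.1, 66.4 and 150.5 in HFD, and 84.8, 92.3 and 64.5 in HFD+Pc. HFD replicate 3 lay apart from the other 2 HFD libraries and was above all 3 HFD+Pc libraries, yet below every control library. Got1 fell by 1.43 ± 0.32 in HFD (limma adjusted p = 0.0279) and fell by 1.48 ± 0.32 in HFD+Pc (limma adjusted p = 0.0125), and the latter held in all 9 fits that left out a library. The HFD call was lost without control replicate 1, 2 or 4 or HFD replicate 1 or 2 (limma adjusted p up to 0.0904). It was also lost when these 2 groups alone were fitted (limma, 0.0618), with no filter on low values (limma, 0.0928) and by limma-voom (0.0561). Leaving out HFD replicate 3 gave -1.86 in HFD (limma adjusted p = 0.00394), and the difference of HFD+Pc from HFD moved from -0.05 to 0.38 (limma adjusted p = 0.288).

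Mdh1 encodes malate dehydrogenase, which links malate and oxaloacetate. Its libraries read 202.1, 212.5 and 230.4 FPKM in control, 246.3, 220.1 and 249.2 in HFD, and 262.7, 293.1 and 272.5 in HFD+Pc. The 3 HFD+Pc libraries were the highest of the 9, and control and HFD overlapped. Mdh1 rose by 0.36 ± 0.10 in HFD+Pc relative to control (limma adjusted p = 0.0261), to 128% of the control mean. That call was lost without control replicate 1, control replicate 2, HFD+Pc replicate 3 or HFD+Pc replicate 4 (limma adjusted p up to 0.0967) and under quantile normalization (0.0609) or with no filter on low values (0.0612). HFD differed from control by 0.15 ± 0.10 (limma adjusted p = 0.343), and HFD+Pc from HFD by 0.21, with a 95% interval of -0.01 to 0.43 (limma adjusted p = 0.331).

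The mitochondrial partners of these enzymes gave no call. Got2 averaged 96.3 ± 1.98 FPKM in control, 102.7 ± 6.58 in HFD and 106.1 ± 8.69 in HFD+Pc (SD, n = 3 each), a difference of 0.09 ± 0.09 for HFD against control (limma adjusted p = 0.55) beside -1.43 for Got1. Mdh2 averaged 48.7 ± 2.10, 45.7 ± 4.51 and 45.4 ± 3.92 FPKM (SD, n = 3 each), and its difference was -0.09 ± 0.10 (limma adjusted p = 0.576). In every control library Got1 was above Got2, and in 5 of the 6 high-fat diet libraries it was below. HFD replicate 3, with 150.5 FPKM for Got1 and 110.1 for Got2, was the exception.

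**Figure D2:**
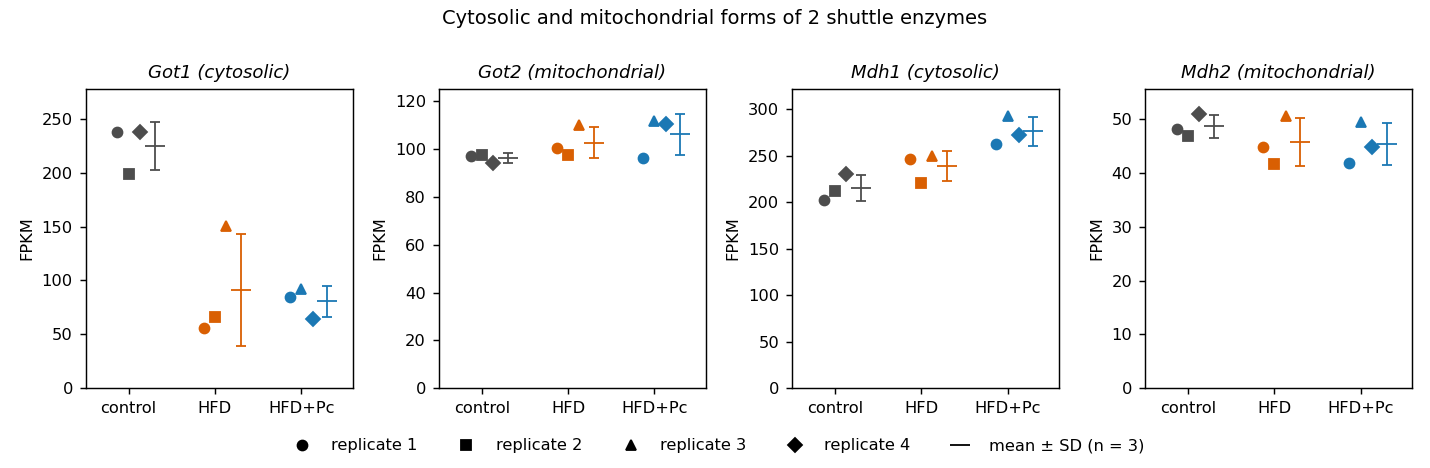
FPKM of Got1 and Mdh1 (cytosolic) and of Got2 and Mdh2 (mitochondrial) in each of the 9 libraries, with axes from 0; points are libraries and bars the mean ± SD of 3. Got1 lies between 199.0 and 237.3 in control and between 56.1 and 150.5 in the high-fat diet groups, while Got2 stays between 94.0 and 111.6 in all 9 libraries.

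The 2 regulators were low in level and gave no call. Ppargc1a encodes PGC-1α, a coactivator that fasting signals induce. It read 1.58, 2.21 and 2.64 FPKM in control, 1.25, 1.39 and 1.98 in HFD, and 1.51, 1.57 and 1.72 in HFD+Pc. Groups overlapped in all 3 comparisons. The differences from control were -0.31 ± 0.14 in HFD (limma adjusted p = 0.199) and -0.26 ± 0.14 in HFD+Pc (limma adjusted p = 0.211). On the log2(FPKM + 1) scale a change at this level is understated.

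Foxo1 encodes the transcription factor that insulin signalling holds out of the nucleus, a step that transcript levels do not report. Its values were 4.86, 4.95 and 6.41 FPKM in control, 5.67, 4.69 and 6.69 in HFD, and 5.33, 5.22 and 5.52 in HFD+Pc. All 3 groups overlapped, and control replicate 4 and HFD replicate 3 were the highest. HFD differed from control by 0.06, with a 95% interval of -0.22 to 0.34 (limma adjusted p = 0.792), and the interval for HFD+Pc against control was -0.28 to 0.28 (limma adjusted p = 0.989).

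**Figure D3:**
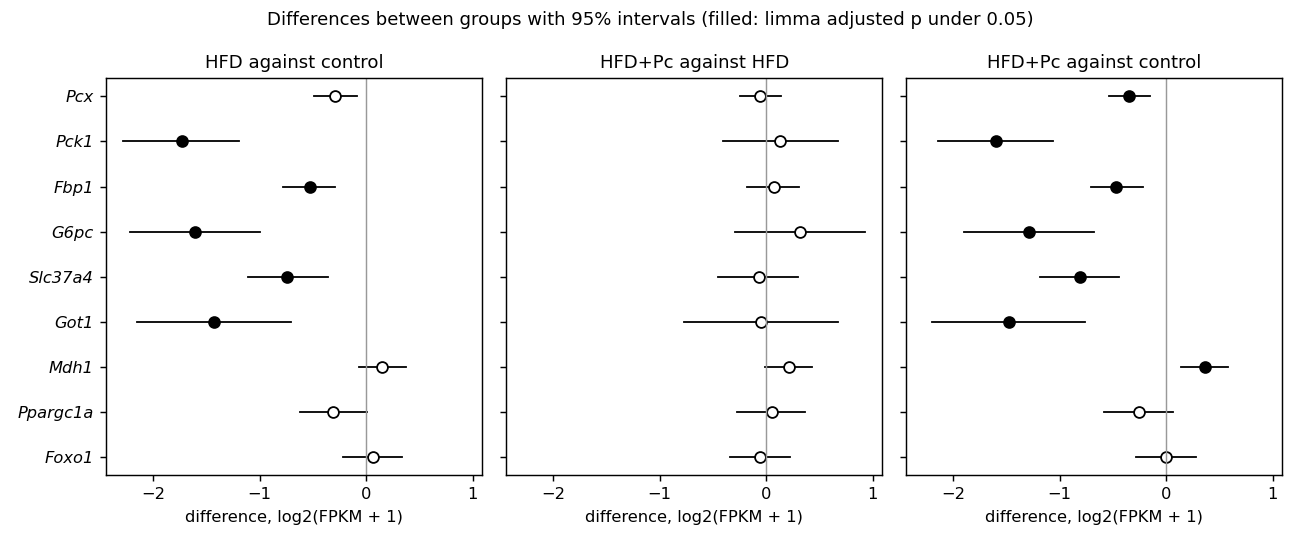
Differences between groups for the 9 genes on the log2(FPKM + 1) scale, 1 panel per comparison; points are limma estimates, lines their 95% intervals, and filled points have an adjusted p under 0.05. Filled points lie left of 0 for 5 genes in HFD against control and for 6 in HFD+Pc against control, where Mdh1 lies right of 0, and no point is filled in HFD+Pc against HFD.

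FPKM are per length, so levels can also be ordered within a group. In control the order ran from Pck1 (1095.3 FPKM) through Fbp1 (672.5), G6pc (324.7), Got1 (224.5), Mdh1 (215.0), Pcx (149.7) and Slc37a4 (72.4) to Foxo1 (5.41) and Ppargc1a (2.14). Only Got1 and Mdh1 overlapped with their neighbour there. In HFD, Fbp1 (464.9) was first and Pck1 (328.2) second, followed by Mdh1 (238.6) and Pcx (122.2), and G6pc (104.4) and Got1 (91.0) overlapped. In HFD+Pc, Fbp1 (487.2), Pck1 (378.5) and Mdh1 (276.1) overlapped in turn, as did G6pc (135.7) and Pcx (117.7). Slc37a4, Foxo1 and Ppargc1a were the lowest 3 in every group.

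For the 9 genes between HFD and HFD+Pc, the intervals show what these libraries could resolve. Pcx (-0.25 to 0.14), Fbp1 (-0.18 to 0.31) and Foxo1 (-0.34 to 0.22) had 95% limits within 0.45 of 0. So did Ppargc1a (-0.27 to 0.36), Slc37a4 (-0.45 to 0.30) and Mdh1 (-0.01 to 0.43). Got1 had the widest interval, -0.77 to 0.67. A missed threshold here does not show that the groups were alike. In HFD+Pc replicate 3, Pck1, G6pc, Fbp1, Pcx and Mdh1 were each the highest of the 6 high-fat diet libraries.

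Other forms of the same enzymes were scarce or gave no call. Pck2, the mitochondrial PEPCK, averaged 0.786 ± 0.23 FPKM in control, 0.601 ± 0.0647 in HFD and 0.583 ± 0.0698 in HFD+Pc (SD, n = 3 each), under the filter for testing. Fbp2, the muscle form, averaged 0.0911, 0.113 and 0.135 FPKM and was also under it. G6pc3, the widely expressed glucose 6-phosphatase subunit, averaged 2.25 ± 0.30, 1.84 ± 0.218 and 1.81 ± 0.381 FPKM (SD, n = 3 each) and differed by -0.19 ± 0.12 between HFD and control (limma adjusted p = 0.323).

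Liver phosphofructokinase (Pfkl) runs the step opposite Fbp1, and liver pyruvate kinase (Pklr) makes pyruvate from the phosphoenolpyruvate that Pck1 supplies. Pklr fell, as Pck1 did, from 49.8 ± 14.0 FPKM in control to 21.7 ± 4.89 in HFD and 22.8 ± 3.45 in HFD+Pc (SD, n = 3 each), by 1.15 ± 0.22 (limma adjusted p = 0.0176, lost without HFD replicate 1 or 2, up to 0.0555, and with no filter on low values, 0.0636) and 1.06 ± 0.22 (limma adjusted p = 0.0104). Pfkl averaged 4.12, 3.67 and 4.30 FPKM and differed by -0.13 between HFD and control (limma adjusted p = 0.483).

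Within each library the ratio of Fbp1 to Pfkl was 147.3, 198.7 and 149.3 in control, 132.8, 107.6 and 141.8 in HFD, and 129.6, 116.2 and 98.7 in HFD+Pc. All high-fat diet libraries were below all controls, and the HFD+Pc libraries overlapped with those of HFD. On the log2 scale the ratio differed by -0.37 in HFD and -0.52 in HFD+Pc from control, each with p = 0.1 in an exact two-sided permutation test, the smallest p that 3 against 3 libraries can give (0.3 adjusted over 6 comparisons). The ratio of Pck1 to Pklr was 15.9, 34.0 and 21.2 in control, 15.7, 17.6 and 13.1 in HFD, and 16.2, 20.9 and 11.7 in HFD+Pc, and all 3 groups overlapped. It differed from control by -0.55 in HFD (exact permutation p = 0.2, 0.4 adjusted) and -0.51 in HFD+Pc (exact permutation p = 0.4, 0.48 adjusted). HFD+Pc against HFD gave -0.15 for Fbp1 to Pfkl and 0.05 for Pck1 to Pklr, with exact permutation p = 0.4 and 0.9 (0.48 and 0.9 adjusted).

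**Figure D4:**
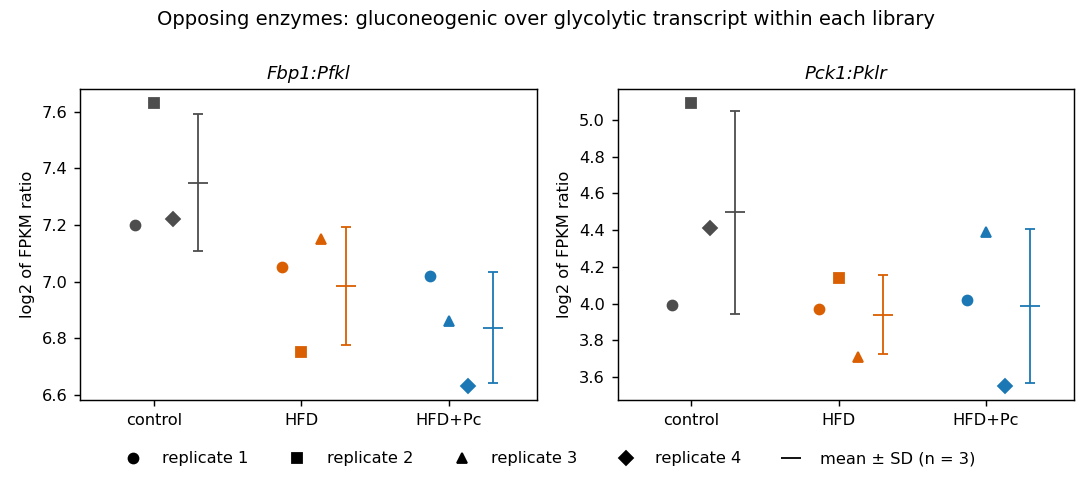
log2 of the FPKM ratio of Fbp1 to Pfkl and of Pck1 to Pklr within each library; the vertical axes differ between panels and do not start at 0, points are libraries and bars the mean ± SD of 3. For Fbp1 to Pfkl every control library lies above the other 6, with means of 7.35 in control, 6.98 in HFD and 6.83 in HFD+Pc, and for Pck1 to Pklr the groups overlap.

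The shared enzymes that glycolysis and gluconeogenesis both use were lower in part. Of 9 tested genes of this list, 2 fell and 0 rose in HFD against control (list median -0.32), 0 changed in HFD+Pc against HFD (median 0.05), and 3 fell and 0 rose in HFD+Pc against control (median -0.21). Among all tested genes 5.35% were lower in the first comparison and 11.9% in the last. Gpi1, which interconverts the hexose phosphates between Fbp1 and G6pc, read 29.6 to 35.3 FPKM in control, 18.9 to 23.5 in HFD and 18.0 to 21.8 in HFD+Pc. It fell by 0.61 ± 0.11 in HFD (limma adjusted p = 0.0139) and by 0.70 ± 0.11 in HFD+Pc (limma adjusted p = 0.0036), and kept both calls when any 1 library was left out. Pgk1, phosphoglycerate kinase, fell by 0.39 and 0.30 (limma adjusted p = 0.0256 and 0.0312), each call kept in only 3 of 9 fits that left out a library (p up to 0.0775 and 0.0868). Tpi1, triosephosphate isomerase, fell by 0.51 in HFD+Pc (limma adjusted p = 0.0131), and its difference in HFD, -0.40, missed the threshold (limma adjusted p = 0.0523).

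Among 19 tested genes of substrate entry and mitochondrial carriers, 2 fell in HFD against control (median -0.05), 0 changed between the high-fat diet groups (median 0.11), and 4 fell and 1 rose in HFD+Pc against control (median -0.06), where 11.9% and 11.1% of all tested genes did. Slc25a12, a carrier that exports aspartate, the substrate of Got1, read 3.52 to 3.92 FPKM in control, 2.56 to 2.69 in HFD and 2.23 to 2.49 in HFD+Pc. It fell by 0.38 ± 0.07 (limma adjusted p = 0.0162, and 0.052 without control replicate 2) and by 0.47 ± 0.07 (limma adjusted p = 0.00355). Slc25a13, the other aspartate carrier of this list and much the more abundant, averaged 82.6, 83.7 and 92.3 FPKM, with differences from control of 0.02 (limma adjusted p = 0.916) and 0.16 (limma adjusted p = 0.191). Sdsl, a relative of serine dehydratase, fell by 0.89 in HFD (limma adjusted p = 0.0214, lost without control replicate 1 or 4 or HFD replicate 1 or 2, up to 0.06). In HFD+Pc, Sdsl fell by 0.78 (limma adjusted p = 0.0158, and 0.055 without HFD+Pc replicate 3). Sds, serine dehydratase, and Gpt, alanine aminotransferase, which both make pyruvate from amino acids, fell in HFD+Pc by 1.42 ± 0.25 (limma adjusted p = 0.00598) and 0.49 ± 0.11 (limma adjusted p = 0.0116). Their differences between HFD and control, -0.90 and -0.34, missed the threshold (limma adjusted p = 0.0534 and 0.072). Aqp9, the glycerol channel of hepatocytes, rose in HFD+Pc by 0.31 ± 0.09 (limma adjusted p = 0.0302, kept in 4 of 9 fits that left out a library, up to 0.0825). The opposing glycolytic list also holds regulators such as Pdk2, so its medians pool enzymes and regulators. Of its genes, 6 tested ones are reported. Pklr alone fell in HFD (median -0.11), none changed between the high-fat diet groups (median 0.05), and Pklr and Pdk2 fell in HFD+Pc (median -0.18). For both lists, the shares of all tested genes lower against control were 5.35% in HFD and 11.9% in HFD+Pc. Pdk2, a kinase that inhibits pyruvate dehydrogenase and not itself a glycolytic enzyme, fell by 0.31 (limma adjusted p = 0.0244), kept in 5 of 9 fits that left out a library (up to 0.0776).

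Regulators on the glucagon, cAMP and glucocorticoid side, to which Ppargc1a belongs, gave 0 calls of 20 tested in HFD against control (median -0.11), 0 in HFD+Pc against HFD (median 0.01) and 4 lower in HFD+Pc against control (median -0.12), beside 11.9% of all tested genes. Crtc2, the CREB coactivator that glucagon activates, read 7.68 to 9.69 FPKM in control, 7.17 to 7.42 in HFD and 4.74 to 5.81 in HFD+Pc. It fell by 0.69 ± 0.10 in HFD+Pc against control (limma adjusted p = 0.00302), and its difference from HFD, -0.44 ± 0.10, missed the threshold (limma adjusted p = 0.0854). Cebpb, a factor that binds the Pck1 promoter, fell by 1.15 ± 0.20 (limma adjusted p = 0.00568) and Ppargc1b, a relative of Ppargc1a, by 0.43 ± 0.08 (limma adjusted p = 0.0062) in the same comparison. These 3 calls held in all 9 fits that left out a library. The fourth gene was Hnf4a.

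On the insulin and AMPK side, 2 genes rose and 3 fell of 20 tested in HFD against control (median -0.07), 0 changed in HFD+Pc against HFD (median -0.01), and 3 rose and 4 fell in HFD+Pc against control (median -0.02), beside 11.1% and 11.9% of all tested genes. In HFD against control those shares were 4.61% and 5.35%. Sik1, a kinase that restrains CRTC2 and is itself a CREB target, read 3.85 to 14.6 FPKM in control, 1.41 to 1.90 in HFD and 1.07 to 1.31 in HFD+Pc. It fell by 1.87 ± 0.35 (limma adjusted p = 0.0173, lost without control replicate 1 or 2 or HFD replicate 1, up to 0.0699) and by 2.16 ± 0.35 (limma adjusted p = 0.00467). Irs2, an insulin receptor substrate that FOXO1 and CREB induce, fell by 1.04 ± 0.25 in HFD (limma adjusted p = 0.0337, kept in 5 of 9 fits that left out a library, up to 0.113). In HFD+Pc, Irs2 fell by 0.91 ± 0.25 (limma adjusted p = 0.0283, kept in 5 of 9 fits, up to 0.1). Akt1, a kinase below the insulin receptor, fell by 0.37 in HFD (limma adjusted p = 0.0482, kept in 0 of 9 such fits, up to 0.135) and by 0.44 in HFD+Pc (limma adjusted p = 0.0133). Pik3r1, the regulatory subunit of PI3-kinase, rose by 0.38 in both (limma adjusted p = 0.025 in HFD, kept in 6 of 9 fits, up to 0.0851, and 0.0122 in HFD+Pc). Prkaa1, a catalytic subunit of AMPK, rose by 0.38 and 0.43 (limma adjusted p = 0.0396, kept in 2 of 9 fits, up to 0.111, and 0.0128). Pik3ca, the catalytic subunit of PI3-kinase, rose by 0.33 in HFD+Pc (limma adjusted p = 0.0179, kept in 7 of 9 fits, up to 0.0629), where Stk11, the kinase LKB1, fell by 0.52 (limma adjusted p = 0.0208, kept in 5 of 9, up to 0.0626).

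Of 17 tested target genes of FOXO1, CREB or the glucocorticoid receptor outside the pathway, 6 fell and 0 rose in HFD against control, with a list median of -0.53 beside -0.001 over all tested genes. In HFD+Pc against HFD, 0 changed (median 0.21), and in HFD+Pc against control 4 fell (median -0.29). The shares of all tested genes that were lower in the first and last of these comparisons were 5.35% and 11.9%. The list was chosen with earlier results of these data known, so its counts beside these shares are a description only. Dusp1, a phosphatase induced by cAMP and glucocorticoids, read 10.6 to 30.0 FPKM in control, 3.75 to 5.65 in HFD and 5.89 to 6.49 in HFD+Pc. It fell by 1.72 ± 0.30 in HFD (limma adjusted p = 0.0136, and 0.0502 without control replicate 2) and by 1.41 ± 0.30 in HFD+Pc (limma adjusted p = 0.0116). Sgk1, a kinase induced by glucocorticoids, fell by 0.65 ± 0.12 in HFD (limma adjusted p = 0.0163), and Igfbp1, a binding protein for IGF that FOXO1 induces, by 1.81 ± 0.35 (limma adjusted p = 0.0193, lost without control replicate 1 or 2 or HFD replicate 1, up to 0.0759). In HFD+Pc, Igfbp1 fell by 1.26 ± 0.35 (limma adjusted p = 0.0326, kept in 4 of 9 fits that left out a library, up to 0.113). Among the 6 calls in HFD, only that of Sgk1 was kept in all 9 such fits. Those of Per1, Angptl4 and Igfbp2 were kept in 4, 2 and 1 of 9 (limma adjusted p up to 0.136). Per1, a clock gene with cAMP and glucocorticoid elements, fell by 1.10 ± 0.22 in HFD+Pc (limma adjusted p = 0.00916), and Fkbp5, a chaperone partner of the glucocorticoid receptor, by 1.29 ± 0.29 (limma adjusted p = 0.0137, and 0.0502 without HFD+Pc replicate 3).

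**Figure D5:**
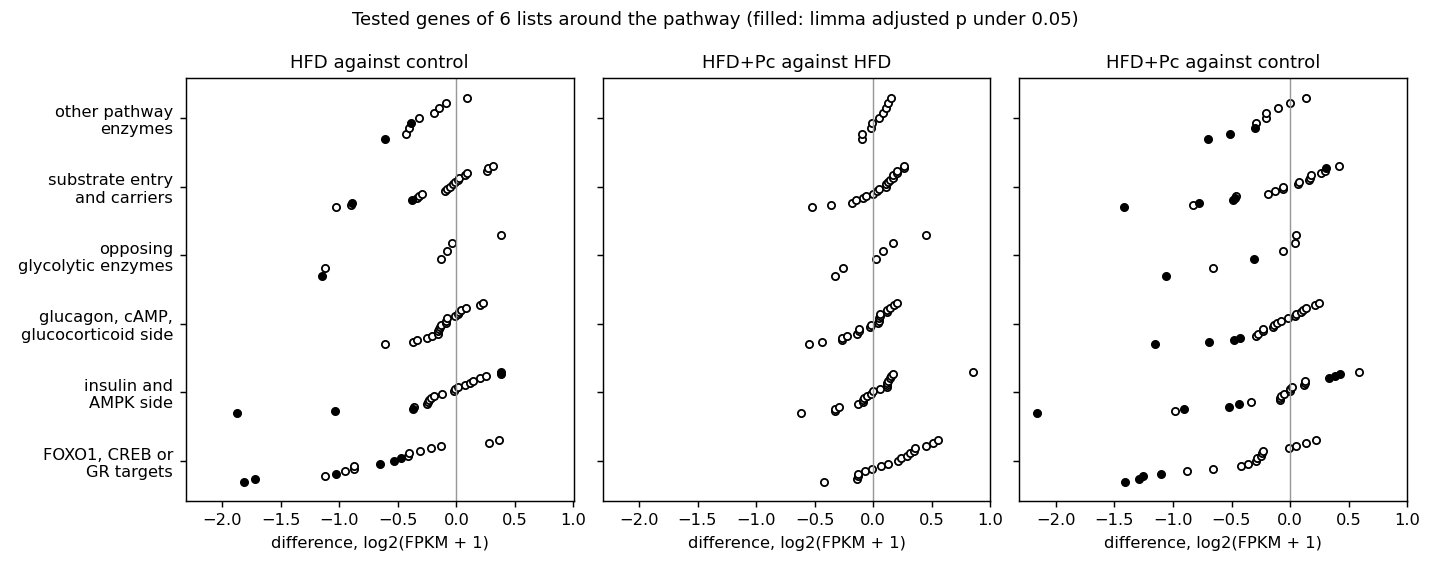
Differences on the log2(FPKM + 1) scale for the tested genes of the 6 lists around the pathway, 1 panel per comparison and 1 row of points per list, where filled points have a limma adjusted p under 0.05. Among FOXO1, CREB or glucocorticoid receptor targets 6 points are filled in HFD against control and 4 in HFD+Pc against control, all left of 0, and no point is filled in HFD+Pc against HFD.

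Gluconeogenic enzymes are richer in hepatocytes near the portal vein than near the central vein. Of 9 periportal markers, 0 passed in HFD against control (7 negative, median -0.37) and 2, Sds and Ass1, were lower in HFD+Pc against control (limma adjusted p = 0.00598 and 0.0236, the latter kept in 6 of 9 fits that left out a library, up to 0.0694). Their summed level was 3551 to 4542 FPKM in control, 2440.4 to 3349.7 in HFD and 2743 to 3116 in HFD+Pc. The ranges of the high-fat diet groups lay below that of control. Most of this sum was Ass1 and Cps1, with control means of 1360.9 and 1134.3 FPKM. In each comparison with control 7 of the 9 markers were negative, and Cyp2f2 and Ctsc were not. Of 9 pericentral markers, 1 was higher in HFD (Lgr5, median of the list 0.21), and in HFD+Pc 4 were higher (Cyp1a2, Lgr5, Rgn and Cyp2e1) and 1, Axin2, lower. The Lgr5 call in HFD was kept in 4 of 9 fits that left out a library (limma adjusted p up to 0.0826). In HFD+Pc those of Cyp1a2, Lgr5, Rgn, Cyp2e1 and Axin2 were kept in 9, 7, 5, 2 and 6 of 9 (up to 0.126). The pericentral sum was 4042 to 5183 FPKM in control, 5479.5 to 6259 in HFD and 6154 to 6778 in HFD+Pc, both above control. Most of it was Cyp2e1, with means of 3433.8, 4262.3 and 4678.6 FPKM. In each comparison with control 2 of the 9 pericentral markers were negative. Among all tested genes, 5.35% were lower and 4.61% higher in HFD against control, and 11.9% and 11.1% in HFD+Pc against control. The part of these levels in the differences of the 9 genes was not tested.

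The hepatocyte markers sit high, at a summed 56367 to 57342 FPKM in control, 40906 to 43095 in HFD and 45672 to 61231 in HFD+Pc, with 1 of 9 tested lower in HFD (Apoa1, kept in 3 of 9 fits that left out a library) and 3 lower and 1 higher in HFD+Pc against control. Most of this sum was Alb, with means of 38647.7 FPKM in control, 26447.9 in HFD and 36337.4 in HFD+Pc. Its difference between HFD and control missed the threshold (limma adjusted p = 0.054). In that comparison 7 of the 9 markers were negative (median -0.21), and Apoa2 and Serpina1a were not. Clock genes bear on the time of collection. Of 10 tested, Nr1d1 and Nr1d2 were higher and Per1 lower in each high-fat diet group against control, with sums of 41.9 to 57.8, 54.7 to 58.4 and 50.4 to 57.4 FPKM. In HFD these calls were kept in 6, 2 and 4 of 9 fits that left out a library (limma adjusted p up to 0.0928), and in HFD+Pc in 8, 9 and 9. Immediate early genes summed to 46.7 to 109.4 FPKM in control, 38.7 to 44.1 in HFD and 45.0 to 52.9 in HFD+Pc, and Btg2 of 6 tested was lower in HFD, while Junb, Btg2 and Jun were lower and Egr1 higher in HFD+Pc against control, and Egr1 was also higher against HFD. The Btg2 call in HFD was kept in 2 of 9 fits that left out a library (limma adjusted p up to 0.117), those of Junb, Btg2, Jun and Egr1 in HFD+Pc against control in 9, 5, 1 and 9 (up to 0.157), and that of Egr1 against HFD in 3 (up to 0.143). Sums for endothelial markers were 81.7 to 92.1, 56.2 to 71.7 and 64.5 to 73.6 FPKM, with 3 and 1 of 8 lower in the high-fat diet groups against control (in HFD, Kdr, Stab2 and Stab1, kept in 8, 8 and 4 of 9 such fits). Stellate markers summed to 96.2 to 108.6, 77.8 to 87.4 and 77.5 to 94.0 (2 of 8 lower in each, and 1 higher in HFD+Pc), and macrophage markers to 395.9 to 552.5, 394.7 to 536.2 and 285.6 to 451.8 (Lyz2 of 10 higher in HFD, kept in 3 of 9 such fits, and C1qa lower in HFD+Pc). Bile duct markers summed to 17.7 to 25.5, 23.7 to 39.4 and 19.5 to 32.4 FPKM (0 of 2 tested), and adipocyte markers to 2.07 to 2.31, 6.59 to 27.0 and 3.57 to 7.28 FPKM (Cfd of 2 tested higher in both). Beside the counts of these lists, 5.35% of all tested genes were lower and 4.61% higher in HFD against control. In HFD+Pc the shares were 11.9% and 11.1% against control, and 0.446% and 0.182% against HFD. No marker of these lists was listed at 0 in all 9 libraries. Mitochondrially encoded transcripts, 37 genes, took 12.5% to 14.8% of the FPKM sum in control, 12.9% to 18.2% in HFD and 14.5% to 16.0% in HFD+Pc. The part of these levels in the 9 genes' differences was also not tested.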

How the data were processed

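The deposited table holds FPKM per gene and library, per the file headers. Per the submitters' processing notes, HISAT2 2.0.5 and the build GRCm39 were used. The read counter and annotation are not given in the sources used here. Within a gene the FPKM were whole multiples of 1 read's value for 26036 of 26278 genes above 0 (99.08%, within 0.02 of a whole number), so the authors' values rest on whole reads. The implied library size was 97.46% to 108.45% of the recovered reads, a rescaling that no source states.

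Differences were tested by limma (3.58.1, under R 4.3.3), with trend and robust options of eBayes, on log2 of FPKM plus a pseudocount of 1. It covered the 10988 genes that reached 1 FPKM in 3 or more libraries and fitted the 3 group means in a single model without covariates. Benjamini-Hochberg adjustment ran across these genes, and calls needed an adjusted p under 0.05. The fit was tested on simulated data. Differences of log2 ratios were tested by exact permutation with scipy 1.17.1 in Python 3.11.15. Alternatives were other pseudocounts, filters and scalings, fits of 2 groups, a replicate block, limma-voom on recovered reads, and leaving out each library.

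Symbols came from a gene name table (52093 of 53700 Ensembl identifiers), and Tf of the hepatocyte markers was not matched. Copies were sought with BLAST 2.17.0+ in an annotation of an earlier build. Promoters are RefSeq's, GRCm38.p6. The 9 genes, the 6 pathway lists and the 10 marker lists were chosen with earlier results of these data known. Named from each list were up to 3 passing genes per direction and comparison by lowest adjusted p. Also named were the paralogs Pck2, G6pc3, Fbp2, Got2 and Mdh2, the enzymes Pfkl and Pklr, and the genes most like Pck1 and G6pc. The latter were the 5 genes with a symbol, outside the 9, that correlated most with each. One gene of the opposing glycolytic list, and the ratio and counts that used it, are not reported here. Pdk2, Hnf4a, Igfbp2, Angptl4 and marker genes are named beside their list's count.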

Additional observations from a re-analysis of the deposited data

How the results depend on the processing

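The calls lower in the high-fat diet groups for Pck1 and G6pc were kept in every setting run except G6pc in HFD without a filter. Genes passing in HFD against control numbered 1095, and 725 with a filter of 0.1 FPKM, 209 with no filter, 680 with only the 2 groups fitted and 232 with a replicate block. Of the 9 genes 5 passed, and 1, 3 and 3 with no filter, with 2 groups and with the replicate block. In HFD+Pc against HFD, 69 genes passed, and 27 with a filter of 0.1 FPKM, 3 with no filter, 107 under quantile normalization, 22 with 2 groups, 3 with the replicate block, 30 with neither trend nor robust estimation, 185 by limma-voom and 115 with FPKM from plain read totals (chosen after seeing the data), while 0 of the 9 genes passed in each. In HFD+Pc against control, 2538 genes passed, and 1383 with no filter and 1058 with the replicate block, and 7 of the 9 genes, and 4 with the block: Fbp1, Pcx and Mdh1 were lost (limma adjusted p = 0.0588, 0.0847 and 0.135). In HFD against control the block ended the calls of Fbp1 (0.0721) and Slc37a4 (0.0614). Replicate numbers 1, 2, 3 and 4 are shared by only 2 to 3 groups, and the labels do not say that equal numbers pair mice. Deviations of same-numbered libraries from their group means correlated at -0.12 to 0.05. With 3 libraries per group these values cannot decide whether equal numbers mark a shared batch. Leaving out 1 library at a time gave 332 to 1126, 5 to 123 and 1396 to 2644 genes, and 2 to 5, 0 to 0 and 4 to 7 of the 9, in the order above. Differences that changed sign were all uncalled. Between HFD+Pc and HFD, Ppargc1a gave -0.021 with the block and -0.001 from plain read totals, and Fbp1 -0.01 by voom and from plain read totals. Leaving out libraries, the ranges were -0.047 to 0.17 for Foxo1 in HFD against control and -0.064 to 0.106 in HFD+Pc against control, and, in HFD+Pc against HFD, -0.18 to 0.36 for Pck1, -0.001 to 0.12 for Fbp1, -0.11 to 0.007 for Pcx, -0.257 to 0.063 for Slc37a4, -0.037 to 0.165 for Ppargc1a, -0.173 to 0.044 for Foxo1 and -0.33 to 0.38 for Got1. The log2 ratios ranged, in the 3 comparisons, from -0.45 to -0.23, -0.27 to -0.04 and -0.61 to -0.38 for Fbp1 to Pfkl, and from -0.81 to -0.26, -0.15 to 0.26 and -0.76 to -0.21 for Pck1 to Pklr. The cause of these dependences was not tested, except that a wider filter adjusts over more genes and smaller fits hold fewer libraries. Over all scalings and limma-voom the median difference of all genes lay between -0.066 and 0.079. Depth limits Ppargc1a most, with 151 to 315 reads per library.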

Other observations

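Outside the 9 genes, the named genes whose levels ran most like those of Pck1 and G6pc were of other kinds. The 9 genes themselves, and genes without a symbol, were left out of this ranking. Over the 9 libraries, on log2(FPKM + 1), Pck1 correlated most with Man2a2, a Golgi mannosidase (Pearson r = 0.975), Npc1, the lysosomal cholesterol exporter (0.968), Kank3 (0.966), Acpp (0.964) and Grasp (0.962). For G6pc the closest were Thrap3, an RNA processing factor (0.983), Brap (0.977), Lamc1, a laminin subunit (0.966), Rrp15 (0.962) and Tbc1d30 (0.96). None is a member of the pathway lists. These values describe 9 libraries that share 3 groups and similar depth, are by selection the highest among the ranked genes, and carry no test. Brap averaged 28.1 ± 3.37 FPKM in control, 18.4 ± 0.354 in HFD and 20.8 ± 2.43 in HFD+Pc (SD, n = 3 each), and Acpp 3.49 ± 0.252, 1.39 ± 0.261 and 1.74 ± 0.367. Both were highest in control.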
